A study of Homo sapiens with 4 samples.

Results

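Actin filaments, the tropomyosins that run along them and the non-muscle myosin II that pulls on them were followed through 10 genes, the 2 cytoplasmic actins (ACTB and ACTG1), the 4 tropomyosins (TPM1 to TPM4), the myosin heavy chain MYH9 and the light chains MYL6, MYL9 and MYL12B. The genes were taken by symbol from the deposited table of each library, and all 10 of 10 were found among 19974 symbols. HCT116, a human colorectal carcinoma cell line, had been transfected for 36 h with 100 nM of a scramble siRNA (si-NC) or of an siRNA against the long non-coding RNA LINC00152 (si-152). Each group held 2 biological replicates, and all 4 libraries were RNA of the same line, so the groups differ in the siRNA given. LINC00152 itself was not analysed here, so the depth of its knockdown in these libraries was not checked. A single siRNA label and a single cell line limit the comparison as a model of losing LINC00152.

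Cytoplasmic actin assembles into filaments that give a cell its shape and let it move, and beta-actin and gamma-actin differ in only a few residues near their start. Tropomyosins are coiled rods that lie along the filament, where the isoform present governs which other proteins may bind. Non-muscle myosin II is a hexamer with a pair each of heavy chains, essential light chains and regulatory light chains, and phosphorylation of the regulatory light chain switches on its contraction of actin in epithelial cells.

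The values are FPKM (fragments per kilobase of transcript, scaled to sequencing depth), so levels of different genes in a library can be set side by side. Summed over all genes they came to 424754 to 534311 per library, and 14589 to 14686 genes were above 0. Reads per library are unknown, and no counting error can be given. In bulk RNA such as this, fewer cells that make a transcript and less of it in each cell cannot be told apart. The epithelial character given by the cell line's origin was visible in the keratins KRT8, KRT18 and KRT19, the adhesion genes EPCAM and CDH1 and the claudin CLDN4, which passed the filter on low values, whereas KRT20 was at 0 in all libraries and VIL1 was near 0. Markers of smooth muscle and fibroblasts summed to 32.1 to 32.9 FPKM in si-NC and 36.5 to 37.4 in si-152, nearly all from SMTN and COL1A1, with MYOCD, COL1A2 and DCN at 0 in every library. Immune and endothelial markers summed to 3.03 to 3.11 FPKM in si-NC and 3.36 to 3.58 in si-152, and PTPRC was at 0 in all libraries.

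TPM4 was 1.93 times as high in si-152 as in si-NC, MYL12B was at 0.465 of its si-NC level, and ACTB supplied a larger share of the actin transcripts. The 10 genes together made up 0.657% and 0.686% of all FPKM in si-NC and 0.625% and 0.643% in si-152. Differences were tested on log2(FPKM + 1) with limma over 11222 genes that reached 1 FPKM in 2 or more libraries, a filter that all 10 genes passed. This scale understates the change of low genes. At an unadjusted p under 0.05, 2 of the 10 genes were called, where 4.38% of all tested genes were. TPM4 was the 1 called higher, against 1.89% of all genes, and MYL12B the 1 called lower, against 2.5%. Both also passed the fold change of 1.5, which with the same p was met by 1.66% of all genes. After Benjamini-Hochberg adjustment over all tested genes none of the 10 passed 0.05, and 0.0178% of all genes did. The median log2 fold change of the 10 genes was 0.01, beside 0.02 for all tested genes.

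**Figure D1:**
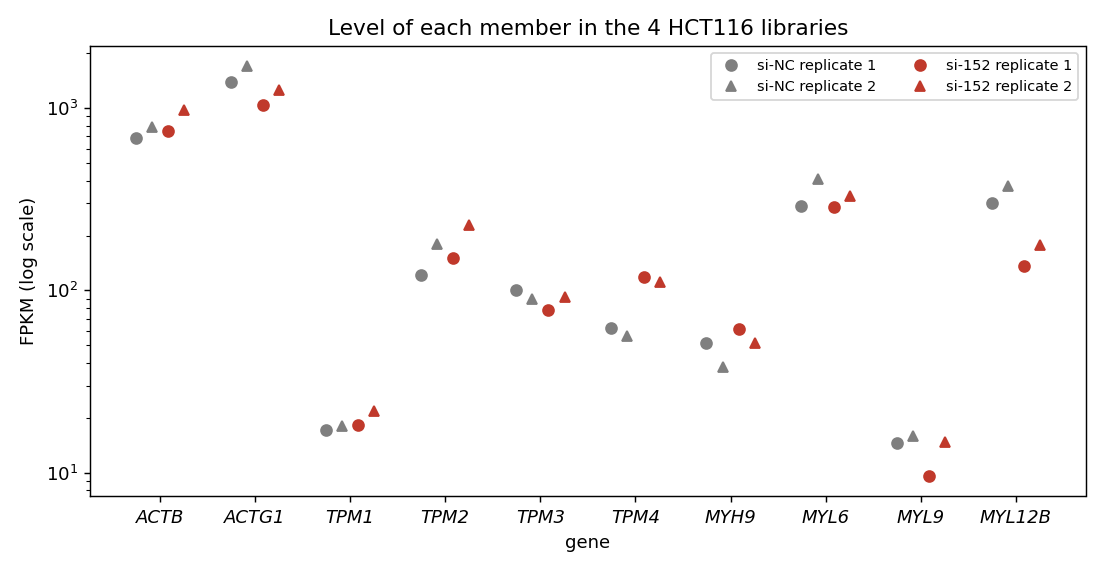
FPKM of the 10 genes in each of the 4 libraries on a log axis, with points for the replicates of si-NC and si-152. TPM4 lay at 62.2 and 56.4 in si-NC and at 118 and 112 in si-152, and MYL12B at 300.2 and 375 in si-NC and at 136 and 178 in si-152, while most other genes overlapped between the groups.

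The genes spanned a wide range of levels. In si-NC, ACTG1 was the most abundant of the 10, with a mean of 1547 ± 208 FPKM (SD, n = 2), followed by ACTB at 737 ± 75.3. MYL6 at 348 ± 82.0 and MYL12B at 338 ± 53.1 came next and could not be ordered, since their libraries overlapped. TPM2 at 151 ± 41.5, TPM3 at 95.1 ± 7.67, TPM4 at 59.3 ± 4.09, MYH9 at 44.9 ± 9.62, TPM1 at 17.6 ± 0.566 and MYL9 at 15.2 ± 0.884 followed without overlap between neighbours. In si-152 the order was different in its middle. TPM2 at 189 ± 54.8 stood above MYL12B at 157 ± 29.3, with overlapping libraries, and TPM4 at 115 ± 4.33 stood above TPM3 at 85.2 ± 9.60, with no overlap. These orders compare mean FPKM and carry no test between genes.

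The groups did not overlap in 4 of the 10 genes, with si-152 of TPM1 and TPM4 above si-NC and of ACTG1 and MYL12B below it, whereas 30.4% of all tested genes separated in this way. Taken by direction, 16.5% of all genes lay above and 13.9% below. The labels number the replicates 1 and 2 in each group. When si-152 replicate 1 was set against si-NC replicate 1, and replicate 2 against replicate 2, 9 of the 10 genes differed in the same direction in both comparisons, beside 63% of all tested genes. TPM3 was the exception, with log2 differences of -0.35 and 0.04. The labels do not say that equal numbers share a culture or a day, so these differences are given as a description.

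**Figure D2:**
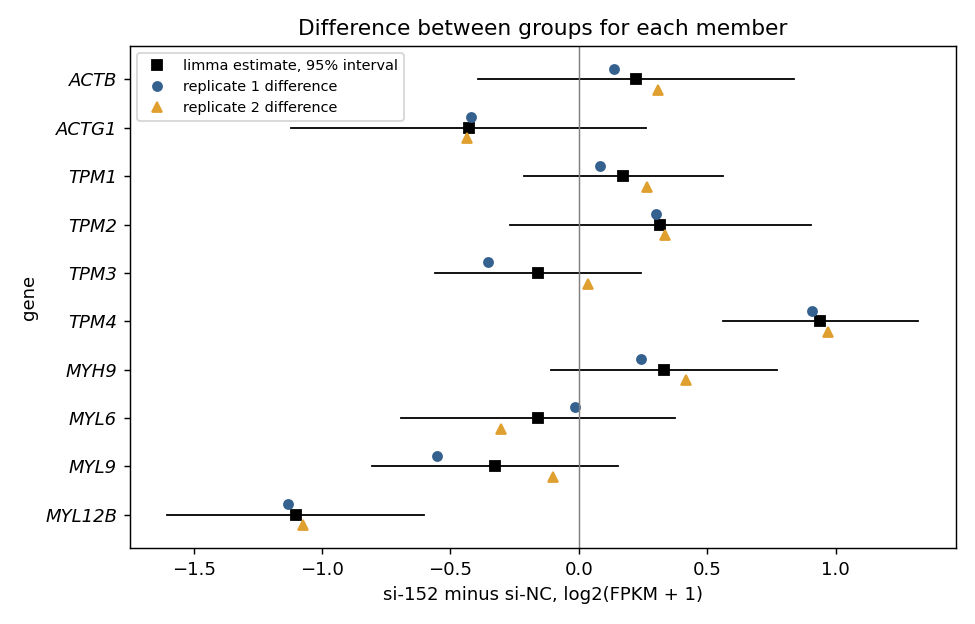
Difference between si-152 and si-NC in log2(FPKM + 1) for each of the 10 genes, with the limma estimate, its 95% confidence interval and the difference within each same-numbered pair of replicates. The intervals of TPM4 (0.56 to 1.32) and MYL12B (-1.60 to -0.60) leave out 0, and those of the other 8 genes include it.

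Among the actins, transcripts of ACTB (chr7:5527147-5563784, minus strand, GRCh38) and ACTG1 (chr17:81509971-81523847, minus strand) were compared first. ACTB, which encodes beta-actin and is often used as a reference gene, measured 684 and 790.2 FPKM with si-NC, against 752 and 979.7 with si-152. The groups overlapped, with si-152 replicate 2 above all others. Its log2 fold change was 0.22 (SE 0.27, 95% interval -0.39 to 0.84, limma unadjusted p = 0.435), with 0.14 in the first pair and 0.31 in the second. It passed 0.05 only after quantile normalization among the alternatives tried, where it was 0.36 (limma unadjusted p = 0.0136).

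ACTG1, which encodes gamma-actin, reached 1400.3 and 1695 FPKM under si-NC, compared with 1045 and 1252 under si-152. Both si-152 libraries were below both si-NC libraries. The log2 fold change was -0.43 (SE 0.31, 95% interval -1.12 to 0.26, limma unadjusted p = 0.196), and the difference was nearly equal in both pairs, at -0.42 and -0.44. Neither actin passed the test alone.

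Set against each other within a library, the actins separated the groups widely. ACTB supplied 32.8% and 31.8% of the actin transcripts (ACTB plus ACTG1) in si-NC and 41.8% and 43.9% in si-152. All libraries of si-152 stood above those of si-NC, with means of 42.9% ± 1.45 and 32.3% ± 0.711 (SD, n = 2 each), a difference of 10.6 percentage points. The difference was 9.04 points between the first replicates and 12.1 points between the second. With 2 libraries per group an exact two-sided permutation test cannot give less than p = 0.333, which is the value it gave here. ACTG1 was at 2.05 and 2.14 times the level of ACTB in si-NC and at 1.39 and 1.28 times in si-152. The sum of both actins overlapped between the groups, at 2084 and 2485 FPKM with si-NC, against 1797 and 2232 with si-152 (exact permutation p = 0.667).

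The reading frames of ACTB and ACTG1 are close to each other. Over 1128 coding bases 91.22% are identical, and no 100-base stretch of a transcript of either gene occurs in the other. The first 30 coding bases (GENCODE release 29, GRCh38) are shown because they hold the start of the protein where the actins differ. Capitals mark the 6 bases at which these stretches differ.
ACTB: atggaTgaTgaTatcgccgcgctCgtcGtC
ACTG1: atggaAgaAgaGatcgccgcgctGgtcAtT
Pseudogenes may take some reads of ACTB, of which 0.15% of the 100-base stretches recur exactly in another annotated transcript, that of ACTBP2. No such stretch was found for ACTG1. Shorter or inexact stretches shared with other genes or pseudogenes were not checked for either actin.

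The other actin genes are those of muscle. Of ACTA1, ACTA2, ACTC1 and ACTG2, only ACTA2, the alpha-actin of smooth muscle, passed the filter. ACTA2 measured 2.82 and 2.53 FPKM with si-NC, against 4.76 and 5.29 with si-152, without overlap, and it had an unadjusted limma p of 0.00459 with a log2 fold change of 0.71 (SE 0.19, adjusted p = 0.760). Its level stayed far under that of the cytoplasmic actins. The smooth muscle and fibroblast markers listed above had a sum a few FPKM higher in si-152, but they did not rise as a set. Of the 2 that passed the filter, SMTN was higher, at 23.99 and 23.15 FPKM with si-NC, against 27.87 and 29.37 with si-152. COL1A1 overlapped between the groups, at 7.98 and 7.02 in si-NC and at 7.74 and 7.11 in si-152. DES, which did not pass the filter, was at 0.83 and 1.88 in si-NC and at 0.62 and 0.83 in si-152. The part of these markers in the ACTA2 value was not tested.

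**Figure D3:**
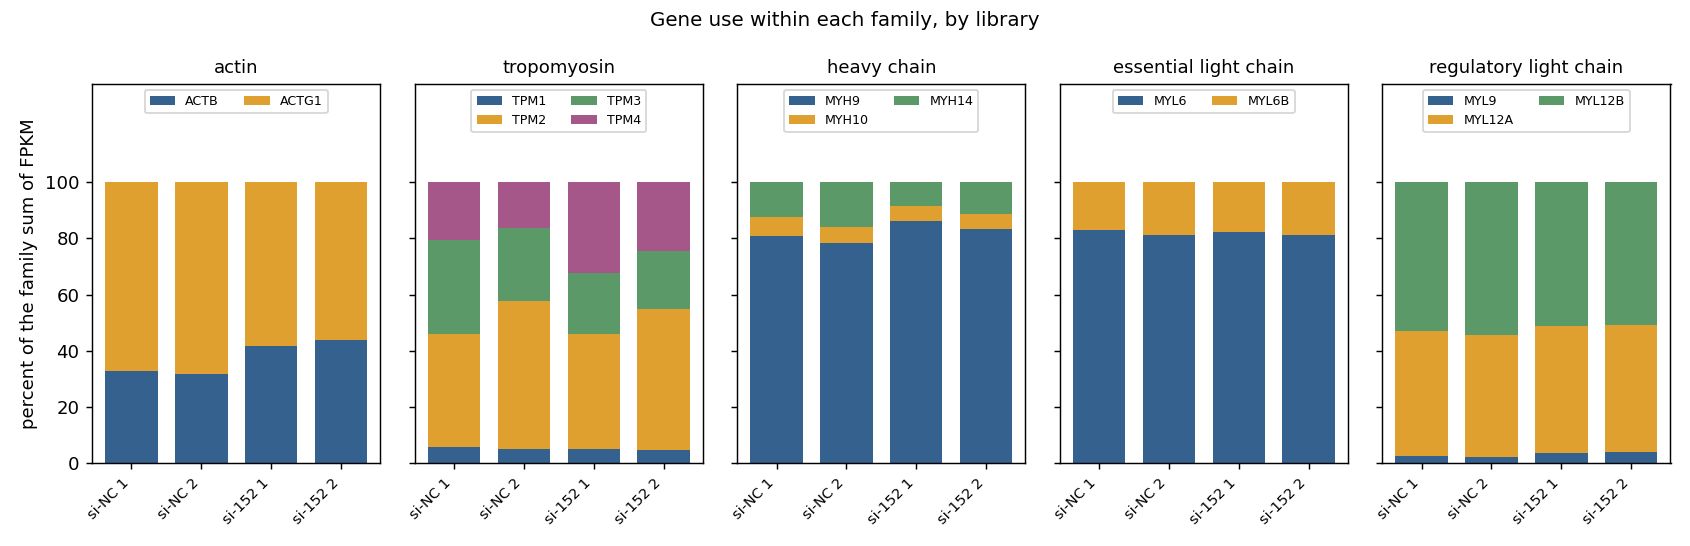
Stacked bars of the share of each gene in the summed FPKM of its family, in percent, for each of the 4 libraries, for the actins, the tropomyosins, the heavy chains, the essential light chains and the regulatory light chains. The ACTB share lay at 31.8% to 32.8% in si-NC and at 41.8% to 43.9% in si-152, TPM4 took a larger share and TPM3 a smaller one in both si-152 libraries, and the MYL6 share overlapped between the groups.

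TPM4 carried the clearest difference of the tropomyosins. Located at chr19:16067021-16103005 on the plus strand (GRCh38), it encodes a short non-muscle isoform found along stress fibres. Another annotated transcript has 855 coding bases, the same as the TPM1 and TPM2 transcripts compared further down. Isoforms of TPM4 were not separated. Its level was 62.2 and 56.4 FPKM in the si-NC replicates and 118 and 112 in those of si-152. The groups were far apart and the replicates close together. Its log2 fold change was 0.94 (SE 0.17, 95% interval 0.56 to 1.32), with 0.91 and 0.97 in the pairs, and by p it was number 12 of all tested genes (limma unadjusted p = 0.000289, adjusted p = 0.270). Of its 100-base transcript stretches 12.65% recur in another annotated gene on either strand, mostly AC008894.3 (10.14%), so some of its reads could be split in counting.

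TPM1 (chr15:63042632-63071915, plus strand) and TPM2 (chr9:35681992-35690121, minus strand) make the long isoforms typical of contractile cells, along with shorter ones from TPM1. TPM1 was low, at 17.2 and 17.99 FPKM with si-NC, against 18.3 and 21.8 with si-152. The groups did not overlap, but the gap between them was small, and the log2 fold change of 0.17 (SE 0.17, 95% interval -0.21 to 0.56, limma unadjusted p = 0.340) did not pass the test. An antisense gene, TPM1-AS, shares 20.23% of its 100-base stretches when either strand is read, and whether the counting used strand is not given in the sources used here.

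TPM2 was the most abundant tropomyosin, at 122 and 180.4 FPKM with si-NC, against 150.1 and 228 with si-152. Replicate 2 exceeded replicate 1 in both groups by more than si-152 exceeded si-NC, and the groups overlapped. The log2 fold change was 0.32 (SE 0.26, 95% interval -0.27 to 0.90, limma unadjusted p = 0.253), with 0.30 and 0.33 in the pairs. The value depended on single libraries. Without si-152 replicate 1 it was 0.62 (limma unadjusted p = 0.0163), but without si-152 replicate 2 it was 0.02 (limma unadjusted p = 0.942) and without si-NC replicate 1 it was 0.04 (limma unadjusted p = 0.915).

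TPM3 (chr1:154155304-154194648, minus strand), another source of short cytoplasmic isoforms, reached 100.5 and 89.7 FPKM under si-NC, compared with 78.5 and 92.0 under si-152. The groups overlapped, and the log2 fold change was -0.16 (SE 0.18, 95% interval -0.56 to 0.24, limma unadjusted p = 0.397). No single direction can be given for it, since the pairs differed in sign.

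The shares of TPM3 and TPM4 in the tropomyosin pool separated the groups. TPM4 supplied 20.6% and 16.4% of tropomyosin transcripts in si-NC and 32.3% and 24.6% in si-152, a mean difference of 9.96 percentage points, with 11.7 in the first pair and 8.25 in the second. TPM3 supplied 33.3% and 26.0% in si-NC and 21.5% and 20.3% in si-152, a mean difference of -8.77 points, with -11.8 and -5.72 in the pairs. Neither share overlapped between the groups (exact permutation p = 0.333 for each, the smallest possible). As a ratio, TPM4 stood at 0.619 and 0.629 of TPM3 in si-NC and at 1.501 and 1.21 of it in si-152, so that the more abundant of the pair was TPM3 in every si-NC library and TPM4 in every si-152 library.

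TPM2 kept the largest share in every library, with 40.3% and 52.4% in si-NC and 41.2% and 50.2% in si-152. These overlapped fully (exact permutation p = 1). TPM1 supplied 5.70% and 5.22% in si-NC and 5.01% and 4.82% in si-152, a smaller share without overlap although its FPKM was higher. The pool as a whole was 302 and 344 FPKM in si-NC and 364.5 and 453 in si-152 (exact permutation p = 0.333). Actin transcripts per tropomyosin transcript were 6.91 and 7.21 in si-NC and 4.93 in each si-152 library, with no overlap and the same smallest p of 0.333.

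The 4 tropomyosins share between 71.56% and 78.71% of their coding bases in pairs, and no 100-base stretch was common to any 2 of them. Each symbol holds 1 value, so the many isoforms that a tropomyosin gene makes from alternative starts and exons were not separated. GENCODE lists 17 coding transcripts in its basic set for TPM1, 6 for TPM2, 11 for TPM3 and 6 for TPM4.

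MYH9, the heavy chain of non-muscle myosin IIA and its motor (chr22:36281277-36388067, minus strand), measured 51.7 and 38.1 FPKM with si-NC, against 61.4 and 51.2 with si-152. Within each group replicate 1 was the higher, and the lowest si-152 library was just under the highest of si-NC. Its log2 fold change was 0.33 (SE 0.20, 95% interval -0.11 to 0.77, limma unadjusted p = 0.125), with 0.24 and 0.42 in the pairs. Leaving out si-NC replicate 1 gave 0.55 (limma unadjusted p = 0.0404), and leaving out si-NC replicate 2 gave 0.12 (limma unadjusted p = 0.668).

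The heavy chains of myosin IIB and IIC were much lower. MYH10 reached 4.49 and 2.70 FPKM under si-NC, compared with 3.84 and 3.22 under si-152, overlapping. MYH14 was at 7.90 and 7.82 in si-NC and at 5.98 and 7.01 in si-152, lower without overlap, with a log2 fold change of -0.25 (SE 0.19, limma unadjusted p = 0.219). MYH9 supplied 80.7% and 78.4% of heavy chain transcripts in si-NC and 86.2% and 83.4% in si-152. MYH14 supplied 12.3% and 16.1% in si-NC against 8.40% and 11.4% in si-152, and MYH10 7.004% and 5.55% against 5.39% and 5.24%. All of these shares were without overlap between the groups, at the smallest permutation p of 0.333. The sum of the heavy chains, 64.1 and 48.6 FPKM with si-NC and 71.2 and 61.5 with si-152, overlapped.

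MYL6, the essential light chain that stiffens the lever arm of the motor (chr12:56158161-56163496, plus strand), measured 290.5 and 406 FPKM with si-NC, against 287 and 329.6 with si-152. The groups overlapped, and si-NC replicate 2 stood apart from the rest. The log2 fold change was -0.16 (SE 0.24, 95% interval -0.69 to 0.37, limma unadjusted p = 0.519), and without si-NC replicate 2 its sign turned, to 0.08. The span of its paralog MYL6B (chr12:56152256-56159647, plus strand) overlaps that of MYL6, but they share no 100-base transcript stretch. MYL6B reached 60.1 and 94.2 FPKM under si-NC, compared with 61.2 and 76.9 under si-152. MYL6 supplied 82.9% and 81.2% of essential light chain transcripts in si-NC and 82.4% and 81.1% in si-152 (exact permutation p = 0.667), which left the makeup of this light chain close to the same in all 4 libraries.

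MYL12B (chr18:3261479-3278431, plus strand) is 1 of the ubiquitous regulatory light chains, which keep myosin filaments stable and carry the sites that kinases phosphorylate. Its level was 300.2 and 375 FPKM in the si-NC replicates and 136 and 178 in those of si-152. The highest si-152 library was far below the lowest of si-NC. Its log2 fold change was -1.10 (SE 0.22, 95% interval -1.60 to -0.60), with -1.13 and -1.07 in the pairs, and by p it was number 18 of all tested genes (limma unadjusted p = 0.000665, adjusted p = 0.415).

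MYL12A, its nearest relative (chr18:3247481-3256236, plus strand), differed by about as much. It measured 251 and 298 FPKM with si-NC, against 120.2 and 158 with si-152, again without overlap. The log2 fold change was -0.98 (SE 0.21), with -1.06 and -0.91 in the pairs (limma unadjusted p = 0.00111, adjusted p = 0.468). MYL12A and MYL12B lie next to each other, on the same strand, 5242 bases apart. The ratio of MYL12B to MYL12A was 1.19 and 1.26 in si-NC and 1.13 and 1.12 in si-152.

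MYL9 (chr20:36541484-36551447, plus strand), the regulatory light chain best known from smooth muscle, was the lowest of the 10 genes. It reached 14.6 and 15.8 FPKM under si-NC, compared with 9.61 and 14.7 under si-152. The groups overlapped narrowly, since si-152 replicate 2 was just above si-NC replicate 1. Its log2 fold change was -0.33 (SE 0.21, 95% interval -0.81 to 0.15, limma unadjusted p = 0.159), with -0.55 and -0.10 in the pairs. It was -0.61 without si-152 replicate 2 (limma unadjusted p = 0.0330) and -0.04 without si-152 replicate 1 (limma unadjusted p = 0.871). As a share of regulatory light chain transcripts it was higher in si-152, with 3.61% and 4.19% against 2.57% and 2.29% in si-NC. MYL12A supplied 45.2% and 45.1% in si-152 against 44.4% and 43.3%, and MYL12B 51.2% and 50.7% against 53.0% and 54.4%. None of these shares overlapped between the groups, and all were at the smallest permutation p of 0.333.

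The total of the regulatory light chains was 566 and 689.6 FPKM in si-NC and 266 and 351 in si-152, and that of the essential light chains was 351 and 501 in si-NC and 348 and 406 in si-152. Regulatory over essential light chain transcripts came to 1.62 and 1.38 in si-NC and to 0.764 and 0.863 in si-152. Thus regulatory transcripts outnumbered essential ones in every si-NC library, and the reverse held in every si-152 library. Per heavy chain transcript there were 8.84 and 14.2 regulatory transcripts in si-NC and 3.74 and 5.71 in si-152, without overlap. Essential transcripts per heavy chain transcript overlapped, at 5.47 and 10.3 in si-NC and at 4.89 and 6.61 in si-152. The permutation p was 0.333 for both ratios that did not overlap.

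**Figure D4:**
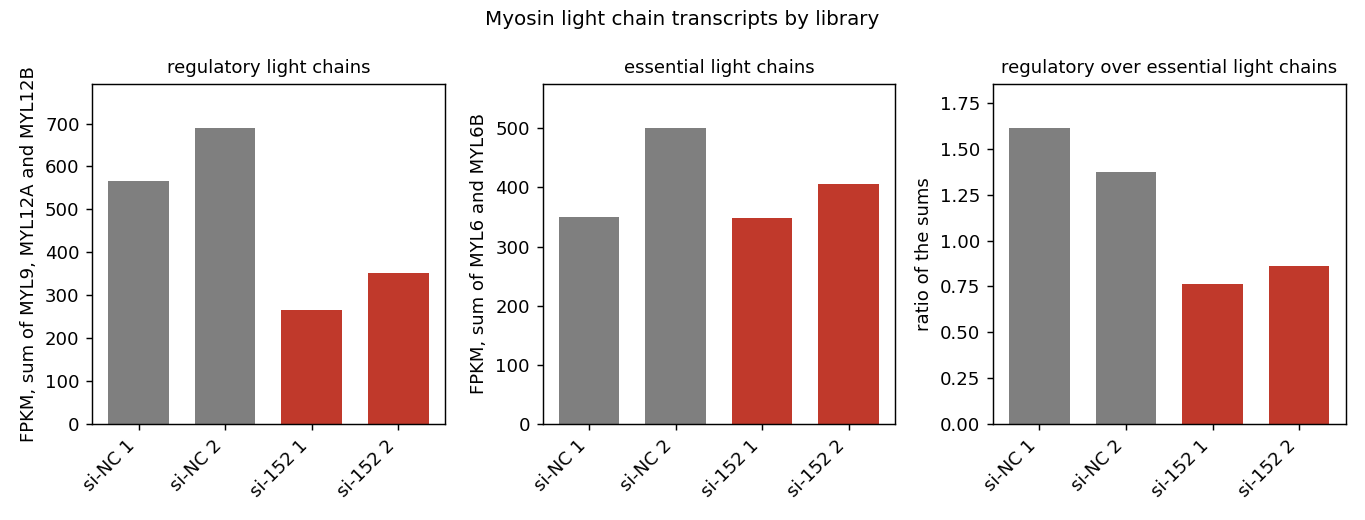
Bars for each of the 4 libraries give the summed FPKM of the regulatory light chains (MYL9, MYL12A and MYL12B), the summed FPKM of the essential light chains (MYL6 and MYL6B) and the ratio of the sums, with si-NC in grey and si-152 in red. The regulatory bars stand at 566 and 689.6 in si-NC and at 266 and 351 in si-152, the essential bars overlap between the groups, and the ratio is above 1 in si-NC and below 1 in si-152.

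Transcript length moved with these values to some degree. The 1198 tested genes whose longest coding transcript is shorter than 1500 bases had a median log2 fold change of -0.12, the 6796 genes from 1500 to below 5000 bases 0.01 and the 2782 genes from 5000 bases up 0.08. MYL12B has 1249 bases, MYL12A 1229, MYL6 1438 and TPM2 1392, and of these short genes MYL6 and TPM2 were at -0.16 and 0.32, while MYL12B and MYL12A were at -1.10 and -0.98. MYH9, with 7554 bases, was in the longest class. Between replicates the trend was stronger, since replicate 2 minus replicate 1 had a median of 0.24 in si-NC and 0.37 in si-152 for the shortest class and of -0.32 and -0.24 for the longest. The ratios of light to heavy chain transcripts set mostly short genes against long ones, and the part of length in them was not tested.

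The coding sequences of MYL12B and MYL12A are 95.18% identical, with 22 mismatches, and those of MYL12B and MYL9 80.54%. No 100-base transcript stretch was shared between them, but shorter stretches were not checked. The first 30 coding bases of the regulatory light chains are shown to make this likeness visible (GENCODE release 29, GRCh38). Capitals mark where MYL12B and MYL12A differ from each other, and in MYL9 where it differs from MYL12B.
MYL12B: atgtcgagcaaaaAGGcaaagaccaagacc
MYL12A: atgtcgagcaaaaGAAcaaagaccaagacc
MYL9: atgtcCagcaaGCGggcCaaAGccaagacc

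The 3′-UTR, the stretch after the stop codon where microRNAs and siRNA seeds can pair, also holds a stretch in common in MYL12B and MYL12A. Both contain the 8-base word GACTGGAA, which 3.63% of the 10756 tested genes with an annotated 3′-UTR hold. Earlier results from these same libraries had singled out this word, so its presence here is no independent support. MYL12B was the only member of the 10 with it. In the 7-base form GACTGGA, which 11.7% of genes hold, the members were MYL12B and TPM1, and of the 4 related genes MYL12A and MYH14. The longest annotated 3′-UTR of each gene was searched, which for TPM1 is that of a 2-exon transcript. Its word, at chr15:63047550-63047556, lies before the TPM1 promoter in RefSeq (chr15:63048239-63048538, plus strand). TPM1 transcripts from that start do not hold it. The median log2 fold change was -0.06 for genes with the 8-base word and 0.02 for genes without it. Since the word was singled out from these same libraries, the difference in medians is no independent support either. The 8-base sites of MYL12B and MYL12A both lie in the last exon, exon 4 of 4. That of MYL12B is at chr18:3278108-3278115 and that of MYL12A at chr18:3256064-3256071, on the plus strand of GRCh38. Capitals mark the word.
MYL12B 3′-UTR: ttgtataatcaGACTGGAAatggggatgag
MYL12A 3′-UTR: ctttataatcaGACTGGAAacgggactttc

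The study considered miR-185-3p, a microRNA proposed to be bound by LINC00152, and its mature sequence is shown with the seed, bases 2 to 8, in capitals (RefSeq).
miR-185-3p: aGGGGCUGgcuuuccucugguc
The match to this seed, CAGCCCC, occurs in the longest 3′-UTR of 21.8% of the tested genes, and in those of TPM1, TPM4 and MYL9 among the 10 genes and of MYH14 among the 4 related ones. Their log2 fold changes were of different sign, with TPM4 at 0.94, TPM1 at 0.17, MYL9 at -0.33 and MYH14 at -0.25. MYL9 holds the match at bases 8, 24, 1022, 1049 and 1684 of its 3′-UTR, and the other genes at a single position. The TPM1 match, at chr15:63046248-63046254, is in a 2-exon transcript. It lies before the TPM1 promoter in RefSeq (chr15:63048239-63048538, plus strand), so transcripts from that start do not hold it. Over all tested genes the median was 0.06 with the match and 0.01 without it. A match is given as a description of the sequence, and binding was not measured. miR-632 is named only.

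Actin and tropomyosin genes are classic targets of serum response factor (SRF), a transcription factor that binds the CArG box with MRTF coactivators, which unpolymerised actin holds in the cytoplasm. A CArG box was found on either strand in 1.29% of 35116 promoters of RefSeq (GRCh38.p14), taken from 250 bases before to 50 after the start. Of the members, 8 had promoters in the table, 14 in all, and the box was found in 2 of these, of ACTG1 and of TPM4. That of ACTG1 lies at chr17:81512884-81512893 on the minus strand, and that of TPM4 at chr19:16067365-16067374 on the plus strand. TPM4 promoters at chr19:16076245-16076544 and chr19:16076766-16077065 did not hold the box, and the values do not separate the starts of a gene. The stretches of ACTG1 and TPM4 are shown with the box in capitals because these genes differed in opposite directions. ACTB and MYL9 had no promoter among those used and were not searched for the box.
ACTG1 promoter: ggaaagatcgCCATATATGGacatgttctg
TPM4 promoter: aatcctaggtCCAAATAAGGcgagggctgc

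Of 10 genes listed for SRF and MRTF, 1 passed an unadjusted p under 0.05, where 4.38% of all tested genes did. It was SRF itself, and none passed after adjustment. SRF measured 11.1 and 10.4 FPKM with si-NC, against 14.9 and 13.96 with si-152, without overlap, with a log2 fold change of 0.39 (SE 0.17, limma unadjusted p = 0.0470, adjusted p = 1.00). All 10 had a log2 fold change above 0, where 54.2% of all tested genes did, and their median was 0.23 beside 0.02 for all genes. VCL was the closest to 0, at 0.0050, and the pairs differed in sign for VCL, PDLIM5 and PDLIM7. ACTG1 and TPM4, the members with a CArG box found in a promoter, were not on this list and were at -0.43 and 0.94. In 5 of the 10 both si-152 libraries were above both si-NC libraries, against the 16.5% of all genes given above. ZYX, which encodes the focal adhesion protein zyxin and was named after its values were seen, reached 64.6 and 64.3 FPKM under si-NC, compared with 85.6 and 80.0 under si-152.

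Regulators of myosin showed a single gene past the unadjusted threshold, which 4.38% of all tested genes passed. Of 16 listed, 15 were tested and RHOB was higher, at 130.5 and 129.6 FPKM with si-NC, against 234 and 248 with si-152, with a log2 fold change of 0.89 (SE 0.18, limma unadjusted p = 0.000809, adjusted p = 0.429). RHOB is a small GTPase that acts on myosin through the ROCK kinases. The replicates of each group were close to each other and the groups far apart. Of the 15, 12 had a log2 fold change above 0, as 54.2% of all tested genes did, and the median was 0.16 beside 0.02 for all genes. MYLK, the kinase of the regulatory light chains, did not reach the filter.

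Of 10 listed partners that bind along or cap the filament, 7 were tested, and 2 of them, CNN2 and TMOD3, were lower at an unadjusted p under 0.05, where 2.5% of all tested genes were. No adjusted p was under 0.05. All 7 had a log2 fold change below 0, as 45.8% of all genes did, with a median of -0.11. CNN3 was the closest to 0, at -0.0024, and the pairs differed in sign for CALD1, CNN3 and TAGLN. CNN2, which encodes the actin-binding calponin 2, measured 95.7 and 88.3 FPKM with si-NC, against 60.2 and 73.0 with si-152, with a log2 fold change of -0.47 (SE 0.18, limma unadjusted p = 0.0267). TMOD3, which encodes tropomodulin 3, a cap of the pointed filament end that binds tropomyosin, reached 24.0 and 15.1 FPKM under si-NC, compared with 14.2 and 10.1 under si-152, with a log2 fold change of -0.62 (SE 0.24, limma unadjusted p = 0.0301). For TMOD3 the lower si-NC library lay just above the higher si-152 library.

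The 7 genes that handle or mature monomeric actin held no gene under 0.05, and their median log2 fold change was 0.01. The 6 tested epithelial markers all had a log2 fold change below 0, as 45.8% of all tested genes did, at a median of -0.25. CDH1 was the closest to 0, at -0.02, and the pairs differed in sign for EPCAM. The epithelial markers summed to 3232 to 3757 FPKM in si-NC and 2544 to 3175 in si-152. None of them had an unadjusted p under 0.05. Their part in the values of the actin and myosin genes was not tested.

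**Figure D5:**
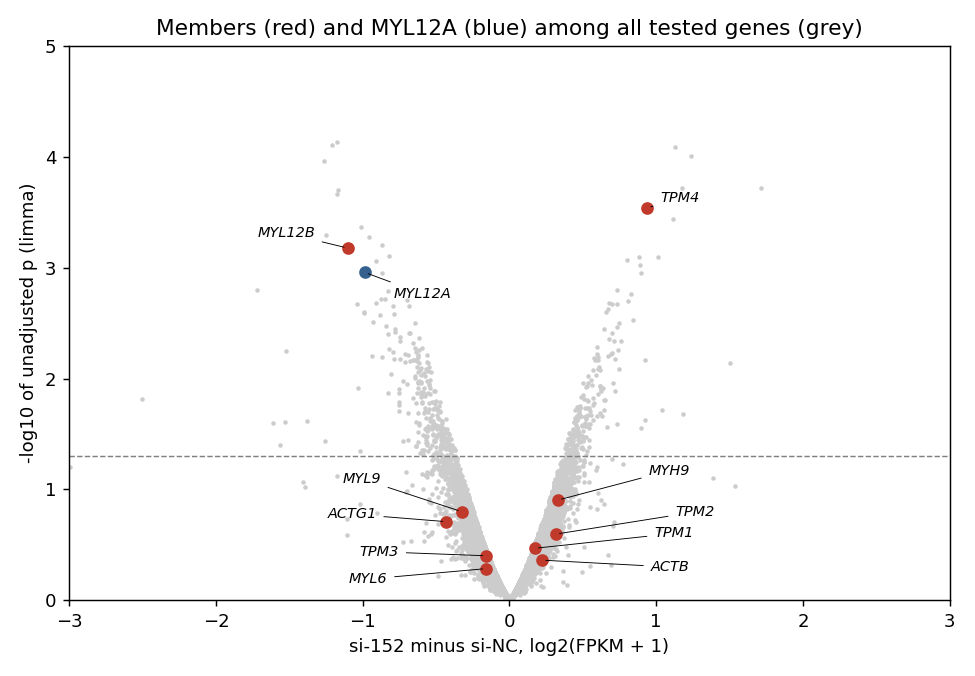
Difference between si-152 and si-NC in log2(FPKM + 1) on the x axis against -log10 of the unadjusted limma p on the y axis, for the 11222 tested genes (grey), the 10 genes (red) and MYL12A (blue), with a dashed line at the 0.05 threshold and 6 genes outside the plotted range. TPM4 at 0.94, MYL12B at -1.10 and MYL12A at -0.98 stand above the line, and the other 8 of the 10 genes lie below it.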

How the data were processed

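RNA of 4 HCT116 libraries was measured by RNA-seq, with 2 each of si-NC and si-152 as the labels give them. The authors deposited 1 FPKM value per gene symbol and library. The unit was inferred from the values, since it is not named. The submitters' processing notes name Trimmomatic, TopHat, HISAT2, HTSeq, DESeq and GRCh38, with versions and settings not given in the sources used here. Read depth is unknown, and low values gave no whole-read steps. The 19974 symbols include 28 date-like entries and 2 repeats.

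No scaling was applied. Values of log2(FPKM + 1) of the 11222 genes that reached 1 FPKM in 2 or more libraries were fitted in R 4.3.3 with limma 3.58.1, letting the variance follow the mean level, with p-values adjusted by Benjamini-Hochberg, after the script had been tested on simulated data. The study's own test worked on counts, which were not used here. Shares within families were compared by exact permutation over libraries (scipy 1.17.1). p-values measure the spread between these samples, which may be partly technical. Transcripts came from GENCODE release 29 (GRCh38) and promoters and the microRNA from RefSeq. Named were the 10 genes, the other non-muscle myosin II genes, and listed genes with an unadjusted p under 0.05. ZYX, VCL, PDLIM5, PDLIM7, CNN3, CALD1, TAGLN and KRT8 fall outside this rule and were chosen after their values were seen. The single values given for the markers SMTN, COL1A1, DES, EPCAM and CDH1 were also chosen after they were seen. TGIF1 and LPIN2 fall outside the rule too and were named for their place. Members, lists and tests were chosen with earlier results of these data known. Pseudocounts, filters, scalings, the variance model, a replicate block and each library left out were tried.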

Additional observations from a re-analysis of the deposited data

How the results depend on the processing

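Of 120 member log2 fold changes under 12 alternatives, 111 kept their direction and side of an unadjusted p of 0.05. TPM4 ranged from 0.85 to 1.01 and MYL12B from -1.29 to -0.91, while 8 values moved past the threshold and MYL6 turned sign, ranging from -0.40 to 0.0823 with a library left out (the latter without si-NC replicate 2). The 492 genes at an unadjusted p under 0.05 became 796 without the filter, and 301 to 714 with a library left out. The 186 also past the 1.5-fold change became 38 with a pseudocount of 10, and 234 to 531 with a library left out. The 2 genes at an adjusted p under 0.05 became 1 with a pseudocount of 0.1 or 10, without the filter, with size factors, with quantile normalization or without the trend, 0 with 1 FPKM required in every library (limma, 458 at an unadjusted p under 0.05), and 39 to 71 with a library left out. With a library left out, members under 0.05 were 2 to 3 unadjusted and 0 to 2 adjusted (1 without si-NC replicate 1 or si-152 replicate 1, 2 without si-152 replicate 2 and 0 without si-NC replicate 2), where the lone library was assumed to vary like the other group. Quantile normalization moved the group difference in TPM1 share from -0.550 to -0.811 points, in the ACTG1 to ACTB ratio from -0.763 to -0.678 and in the actin to tropomyosin ratio from -2.13 to -1.75. With a library left out, the group difference ranged from 6.13 (without si-152 replicate 1) to 13.8 points for the TPM4 share (9.96 with all libraries), from -12.4 to -5.12 (without si-NC replicate 1) for the TPM3 share (-8.77) and from -9.47 to -4.12 (without si-NC replicate 2) for the regulatory to heavy chain ratio (-6.79). It changed sign for the TPM2 share, which was above 0 without si-NC replicate 2 or si-152 replicate 1 (range -6.66 to 5.38), and for the essential to heavy chain ratio, which was above 0 without si-NC replicate 2 (range -4.55 to 0.280). The causes were not tested beyond the construction of each alternative.

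Same-numbered libraries deviated together (correlation 0.52 across genes), but with 2 pairs and no label that ties them they share only a number. When limma held replicate number as a block, 1893 genes (16.9%) had an unadjusted and 78 (0.695%) an adjusted p under 0.05. Of the members, 6 then had an unadjusted p under 0.05, with ACTG1, TPM2, MYH9 and MYL9 added to TPM4 and MYL12B, and 2 had an adjusted one, TPM4 (adjusted p = 0.0118) and MYL12B (adjusted p = 0.00699). Unknown depth and 2 replicates per group limit every value.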

Other observations

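Around the MYL12 genes on chromosome 18, the nearest other tested genes were measured alongside and were named for their place. TGIF1, a transcriptional repressor, measured 124 and 106 FPKM with si-NC and 113 and 126 in si-152, with a log2 fold change of 0.06 (SE 0.18, limma unadjusted p = 0.748), and its start lies 133176 bases beyond the end of MYL12B. LPIN2, which encodes the lipid phosphatase lipin 2 on the other side, measured 4.50 and 3.52 FPKM with si-NC and 3.81 and 2.75 in si-152, with a log2 fold change of -0.23 (SE 0.22, limma unadjusted p = 0.314).

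KRT8, a keratin of simple epithelia named after its values were seen, reached 1046 and 1138 FPKM under si-NC and 718 and 912 in si-152, with no overlap (log2 fold change -0.43, SE 0.28, limma unadjusted p = 0.157).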
